A study of Mus musculus with 16 samples.

Results

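The genes described here are 59 genes of the cell division cycle, chosen by name from the 48526 genes of both deposited tables. They fall into 3 functional groups: 17 genes of the cyclins, cyclin-dependent kinases (CDKs), CDK inhibitors and E2F factors, 24 genes of DNA replication and S phase, and 18 genes of mitosis. All 59 symbols were found in both tables, and all 59 passed the filter on low values in every comparison. Total RNA was measured by bulk RNA sequencing in the microdissected cardiac region of 16 single C57BL/6J mouse embryos at E8.5e, the stage of the looping heart tube. The embryos come from 2 lines with changes in Greb1l, called G3 and G17. Each line has 4 control embryos, labelled WT littermate, and 4 embryos labelled mutant, which are Greb1lem1Cjean/em1Cjean in G3 and Greb1lex17/ex17 in G17. The labels give neither the litter nor the sequencing batch of an embryo, so line and batch cannot be told apart. The p-values set a group difference against the spread between these embryos, and which embryos share a litter is not known.

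Cyclins bind and activate CDKs, and the D and E cyclins carry a cell from G1 into S phase. E2F factors activate genes of S phase, among them the MCM helicase and the enzymes that make deoxynucleotides, while CDK inhibitors such as p27 (Cdkn1b) hold the kinases back. Genes of mitosis are mostly transcribed late in the cycle, in G2 and M, and many carry a CHR element and CCAAT boxes in their promoters. In the embryo at the stage of the heart tube, progenitor cells outside the tube divide and the cells added to it slow their division.

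Greb1l itself was checked first. In G17 it fell from 9818 ± 508 normalized reads (SD, n = 4) in the controls to 4215 ± 961 in the mutants, 42.9% of the control level. In G3 it was higher in the libraries labelled mutant, at 20144 ± 3377 against 10984 ± 1319 (183%). The embryos of the groups did not overlap in either line (exact two-sided permutation test, p = 0.0286, the smallest that 70 arrangements allow). The deposited value is 1 number per gene, so reads over the altered exon cannot be seen. Because Greb1l is not reduced in G3, the groups of that line are called by their labels and each direction in G3 is that of the libraries labelled mutant. Library totals were between 32391421 and 49353025 reads. The 10 markers of heart tube myocardium were present in every embryo and summed to between 3110 and 6157 RPM (reads per 1000000 of the library), as the cardiac label has it. Markers of yolk sac visceral endoderm, which are not cardiac, also differed: their sum was 390 to 1482 RPM in G3 controls, 113 to 497 in the G3 libraries labelled mutant, 554 to 3918 in G17 controls and 157 to 821 in G17 mutants.

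The promoters of the cell cycle genes show how the groups differ in sequence. RefSeq promoters of build GRCm38.p6, from 250 bases before to 50 after the start, were found for 48 of the 59 genes (53 promoters); Aurkb, Ccna2, Ccnd1, Ccnd2, Ccne2, Gins1, Gins2, Kif20a, Mcm4, Pole and Tpx2 were not among them. Both strands were searched for an E2F motif (TTTCCCGC, TTTGGCGC, TTTCGCGC or TTTGCCGC), a CHR element (TTTGAA or TTCGAA) and a CCAAT box (CCAAT). The following 6 promoters are shown because their genes carry the differences described below (Cdkn1b, Ccne1, Rrm1, Bub1b and Top2a) or show the E2F pattern (Mcm6), with the matches in capitals; in Mcm6 a pair of E2F matches on opposite strands overlap.
Cdkn1b, chr6:134920151-134920450, plus strand: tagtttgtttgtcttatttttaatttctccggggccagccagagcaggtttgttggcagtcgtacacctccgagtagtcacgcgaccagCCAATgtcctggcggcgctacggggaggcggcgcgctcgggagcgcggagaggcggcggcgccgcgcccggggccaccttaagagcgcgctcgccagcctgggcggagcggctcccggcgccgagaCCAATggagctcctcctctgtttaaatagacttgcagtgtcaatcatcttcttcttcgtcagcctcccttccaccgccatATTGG
Ccne1, chr7:38107441-38107740, minus strand: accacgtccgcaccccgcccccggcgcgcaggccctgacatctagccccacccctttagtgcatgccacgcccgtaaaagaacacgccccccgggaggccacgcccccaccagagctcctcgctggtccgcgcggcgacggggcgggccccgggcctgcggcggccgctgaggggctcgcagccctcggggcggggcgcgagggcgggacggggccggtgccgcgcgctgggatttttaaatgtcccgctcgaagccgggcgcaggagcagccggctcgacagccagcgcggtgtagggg
Rrm1, chr7:102441445-102441744, plus strand: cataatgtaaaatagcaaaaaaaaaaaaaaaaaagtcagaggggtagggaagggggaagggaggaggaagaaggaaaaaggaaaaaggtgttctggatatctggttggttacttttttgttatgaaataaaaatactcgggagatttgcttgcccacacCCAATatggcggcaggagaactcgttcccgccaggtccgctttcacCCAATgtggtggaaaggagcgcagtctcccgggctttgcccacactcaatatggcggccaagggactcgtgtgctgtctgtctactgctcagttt
Mcm6, chr1:128359656-128359955, minus strand: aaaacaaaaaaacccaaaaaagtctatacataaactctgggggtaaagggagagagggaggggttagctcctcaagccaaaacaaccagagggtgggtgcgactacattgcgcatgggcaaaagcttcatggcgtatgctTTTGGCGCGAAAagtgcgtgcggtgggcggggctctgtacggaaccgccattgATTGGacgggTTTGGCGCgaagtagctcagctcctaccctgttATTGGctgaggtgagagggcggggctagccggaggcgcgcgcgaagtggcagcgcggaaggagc
Bub1b, chr2:118597961-118598260, plus strand: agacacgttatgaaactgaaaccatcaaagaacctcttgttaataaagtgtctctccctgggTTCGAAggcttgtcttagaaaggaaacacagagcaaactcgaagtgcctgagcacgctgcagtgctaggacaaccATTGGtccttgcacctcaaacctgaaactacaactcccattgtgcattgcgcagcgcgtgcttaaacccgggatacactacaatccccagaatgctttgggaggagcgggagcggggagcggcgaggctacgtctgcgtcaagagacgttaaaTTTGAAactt
Top2a, chr11:99024140-99024439, minus strand: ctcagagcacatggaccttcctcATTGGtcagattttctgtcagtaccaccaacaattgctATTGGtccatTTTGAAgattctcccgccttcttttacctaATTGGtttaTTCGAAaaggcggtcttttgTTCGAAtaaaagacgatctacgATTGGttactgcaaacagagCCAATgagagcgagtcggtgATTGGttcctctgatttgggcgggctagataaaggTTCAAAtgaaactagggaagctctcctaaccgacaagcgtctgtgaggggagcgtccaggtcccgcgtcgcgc

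Some genes have more than 1 promoter here: the 17 cyclin promoters belong to 13 genes and the 21 replication promoters to 20. The E2F motif was found in 10 of 21 promoters of the replication group (47.62%) and in none of 15 of the mitosis group. It was in 23.53% of the 17 promoters of the cyclin group, and in 2.265% of all 32851 promoters. The CHR element had the opposite distribution: 11 of 15 mitosis promoters held it (73.33%), against 19.05% of the replication promoters, 23.53% of the cyclin promoters and 19.23% of all promoters. All 11 mitosis promoters with a CHR element also held a CCAAT box, a combination found in 7.525% of all promoters. A CCAAT box alone was common, in 80% of mitosis, 76.19% of replication and 58.82% of cyclin promoters against 37.41% of all. Of the genes printed here, Top2a had 4 CHR matches and 6 CCAAT boxes, Bub1b 2 and 1, Rrm1 only 2 CCAAT boxes, Cdkn1b only 3 CCAAT boxes, and the Ccne1 window held none of these letters. A match is a run of letters and not a shown binding site.

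The cell cycle genes were among the more strongly expressed genes of the control embryos. On a scale of normalized reads per kb of exon, their median level was 1313, against 113.6 for the 19938 genes measured, and 34 of the 59 lay above the 90th percentile. Cdk4, the kinase partner of the D cyclins, had the highest level at 8677 ± 352 (SD, n = 8), above the highest embryo of the next gene. It was followed by Rrm2, a subunit of ribonucleotide reductase, at 6481 ± 762, by Pcna, the sliding clamp of DNA polymerase, at 5322 ± 530, and by Cdc20, an activator of the anaphase-promoting complex, at 4708 ± 487. These 3 overlapped in neighbouring pairs, as did 52 of the neighbouring pairs in the whole order. At the low end stood Cdk6 (190.5 ± 16.98), E2f2 (104 ± 29.8) and the CDK inhibitor gene Cdkn2c (17.999 ± 10.7), and each of these was separate from its neighbour. Cdkn2c had no read in G17 control 29, where a count of 0 allows up to 2.87 normalized reads (counting error only). The median coefficient of variation between embryos was 7.79% for the members, against 25.5% over all genes. By group it was 10.4% for cyclins and CDKs, 7.68% for replication and 6.61% for mitosis. The median level of the members was well above that of all genes, and genes of like level were not compared. These values therefore do not show whether cell cycle genes vary less than other genes of their level. At the low end, E2f2 and Cdkn2c varied more than the median of all genes, and Cdk6 varied less.

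**Figure D1:**
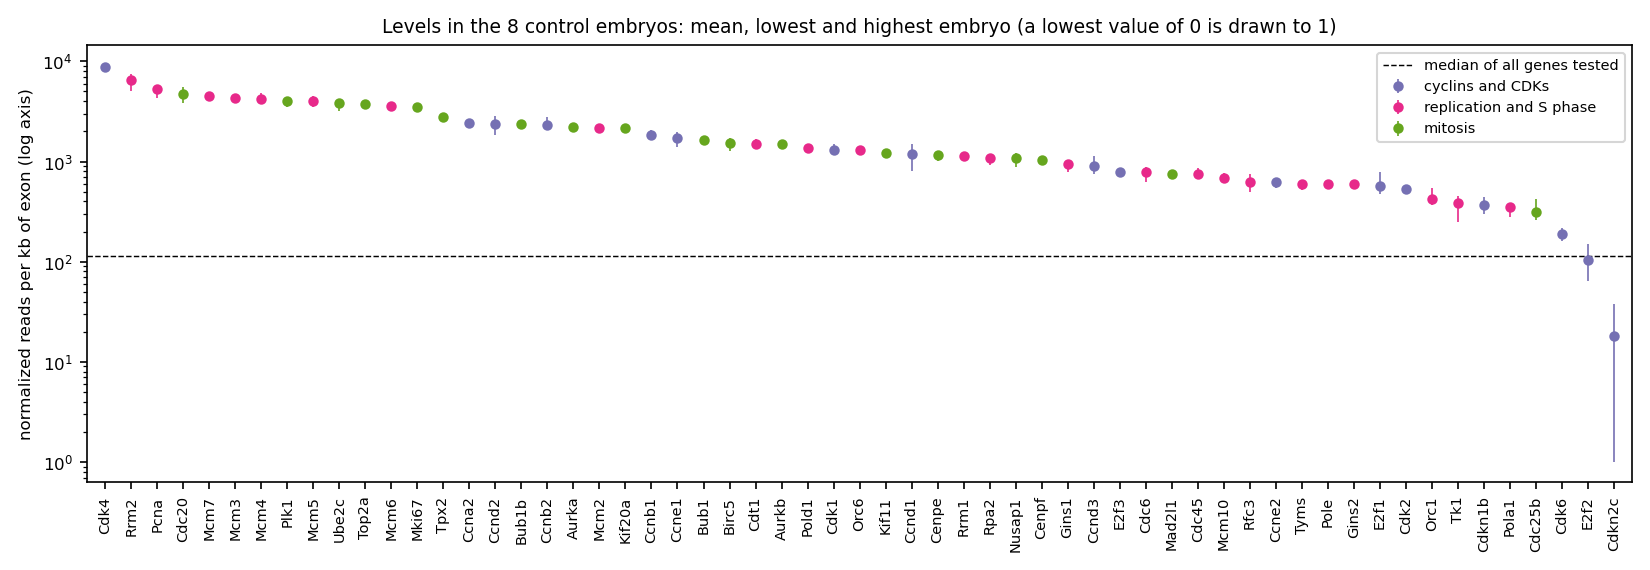
Level of each of the 59 genes in the 8 control embryos, ordered from high to low, in normalized reads per kb of exon on a log axis; points are means, lines run from the lowest to the highest embryo, colours give the functional group and the dashed line is the median of all genes (113.6). Cdk4 leads at 8677, and only E2f2 and Cdkn2c have a mean below the dashed line.

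Mutant and control embryos were compared in each line and over both. In G3, 1 of the 59 genes was higher and 2 were lower in the libraries labelled mutant at an adjusted p under 0.05 (limma on log2(value + 1), Benjamini-Hochberg over all genes), where 3.98% of all genes were called (2.35% higher and 1.63% lower). In G17, 3 were higher and 0 lower, against 3.03% of all genes (1.87% higher and 1.16% lower); 3 members were below 0 at an unadjusted p under 0.05 and DESeq2 called 1 of the 59 lower. With both lines in 1 fit and line as a term, 7 were higher and 2 lower, against 11.2% of all genes (5.87% higher and 5.30% lower), and 19 members, or 32.2%, had an unadjusted p under 0.05, against 25.0% of all genes. The share of the 59 genes called was 5.08%, 5.08% and 15.3%. In bulk tissue, a change in the number of dividing cells and a change in RNA per cell cannot be told apart.

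Each functional group was also described by its median. In G3 the median log2 difference was -0.01 for cyclins and CDKs, -0.02 for replication and 0.01 for mitosis, beside 0.01 for all genes. In G17 it was 0.05, 0.09 and 0.05, beside -0.01, and 44 of the 59 genes lay above 0 (74.6%), where 48.6% of all genes did. Of these, 18 of 24 replication genes and 15 of 18 mitosis genes lay above 0. The 3 medians of the joint fit were each 0.04, with 39 of 59 genes above 0 (66.1%), against 49.9% of all genes. The G17 medians moved with single embryos. Without G17 control 29 they were 0.02, 0.06 and 0.02, with 39 of 59 genes above 0, and without G17 control 20 they were 0.10, 0.15 and 0.09. The median of cyclins and CDKs was also 0.09 without G17 mutant 36 and 0.03 without G17 mutant 41, and that of mitosis 0.08 without G17 control 37 or G17 mutant 33. Over the 8 fits that left out an embryo, the G17 medians ran from 0.02 to 0.10 for cyclins and CDKs, from 0.06 to 0.15 for replication and from 0.02 to 0.09 for mitosis. In the joint fit without G17 control 29 the medians were 0.01, 0.01 and 0.04, with 33 of 59 genes above 0. The joint replication median was 0.02 without G17 control 35 or 37 or G17 mutant 36 or 41, and that of cyclins and CDKs was 0.06 without G17 control 20. The G3 medians changed sign between such fits for cyclins and CDKs (-0.02 to 0.01) and for replication (-0.05 to 0.02). With the yolk sac marker score of each embryo as a term, the G17 medians were 0.03, 0.02 and -0.03.

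**Figure D2:**
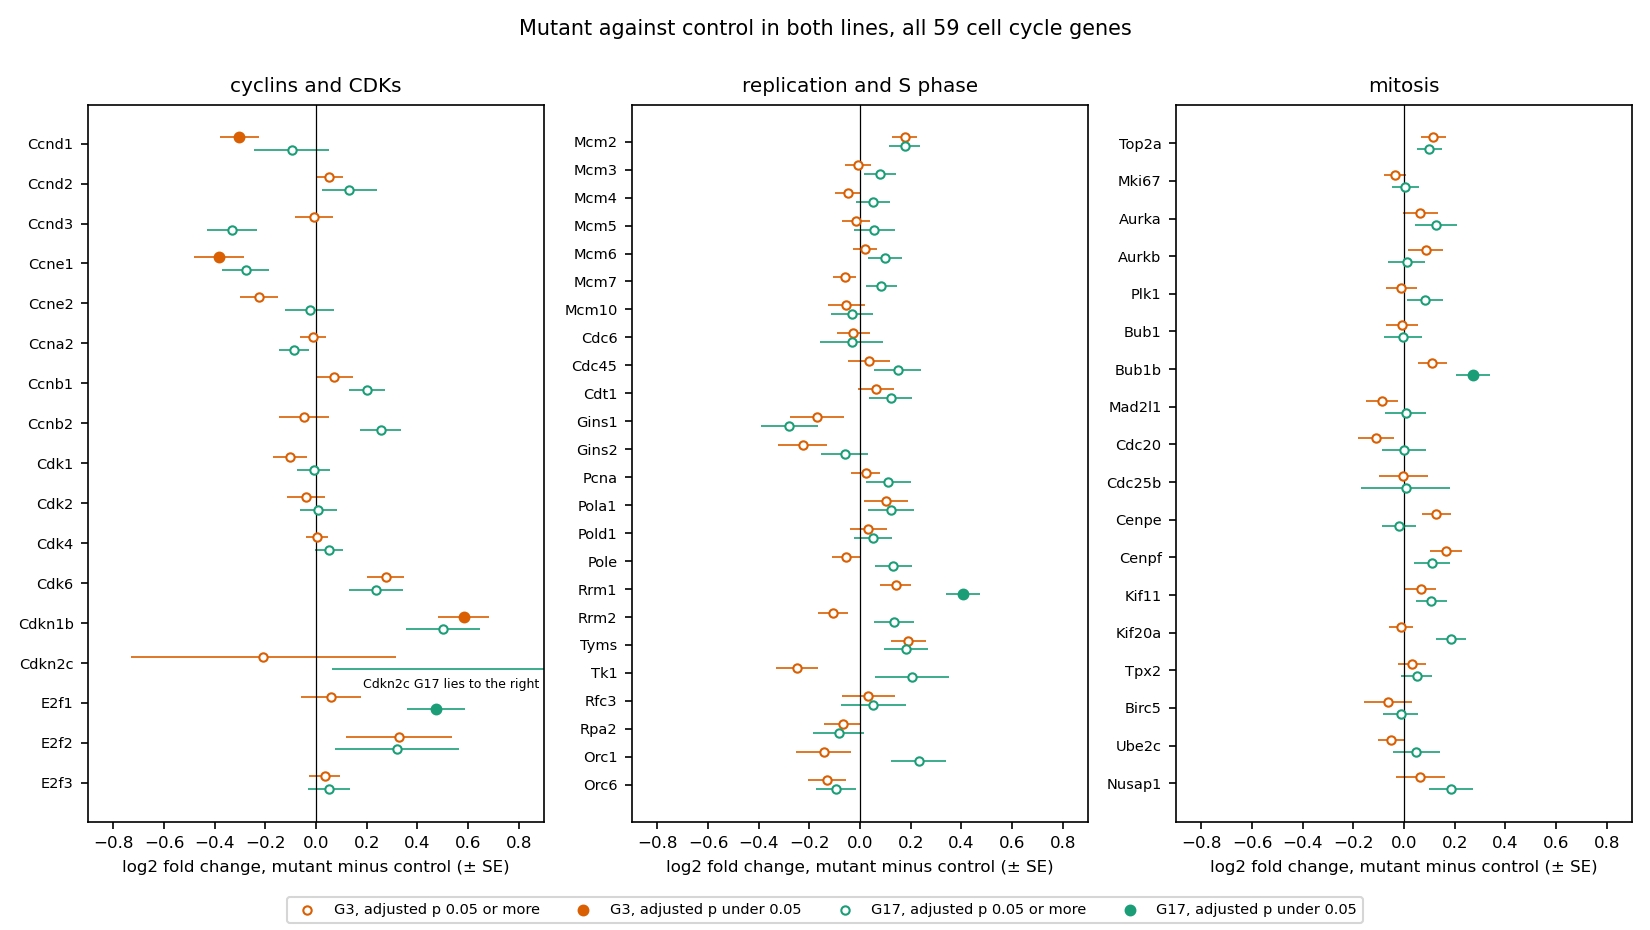
Log2 fold change of mutant against control, with its standard error, for all 59 genes in G3 (orange) and G17 (green), in 3 panels for the functional groups; filled points have an adjusted p under 0.05. In G3 the filled points are Cdkn1b, Ccnd1 and Ccne1, and in G17 they are E2f1, Rrm1 and Bub1b. Cdkn2c in G17 (1.27, not called) lies outside the axis. Its value was 0 in G17 control 29, 37 to 54 normalized reads in the other G17 controls and 18 to 71 in the mutants.

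Among the cyclins and CDKs, the p27 gene Cdkn1b was the member whose mutant embryos lay above all control embryos in both lines. In G3 the controls had 1370, 1629, 1782 and 1576 normalized reads and the libraries labelled mutant 2489, 2212, 2645 and 2168. In G17 the controls had 2020, 1688, 1594 and 1737 and the mutants 2103, 3415, 2372 and 2220. Embryo 36 of the G17 mutants is the highest of the 16, and the lowest G17 mutant is close to the highest control. The log2 difference was 0.58 ± 0.10 in G3 (SE; limma adjusted p = 0.0072), 0.50 ± 0.15 in G17 (limma adjusted p = 0.0898, not called) and 0.54 ± 0.09 over both lines (limma adjusted p = 0.0005). The difference between the lines, -0.08 ± 0.19, was not called (limma adjusted p = 0.965). Yolk sac markers differed between the same groups, and with their score as a term, the value was 0.51 in G3 (limma adjusted p = 0.0748), 0.13 in G17 (0.905) and 0.35 over both lines (0.0595), so none of the calls held in that fit.

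Ccne1, the gene of cyclin E1, which activates Cdk2 at the entry to S phase, was lower in all mutant embryos than in all controls of its own line. In G3 the controls had 5234, 4676, 4368 and 4841 normalized reads and the libraries labelled mutant 3624, 3011, 3766 and 4355. In G17 the controls had 4178, 3742, 4350 and 4783 and the mutants 3487, 3703, 3697 and 3154. The groups are separate in both lines but touch closely, with gaps of 4355 to 4368 and of 3703 to 3742. The log2 difference was -0.38 ± 0.10 in G3 (limma adjusted p = 0.04997), -0.28 ± 0.09 in G17 (limma adjusted p = 0.141) and -0.33 ± 0.07 over both lines (limma adjusted p = 0.00375). The joint value passed the test in every alternative, including each fit that left out an embryo (adjusted p of 0.00129 to 0.01) and the fit with the yolk sac term. The G3 call alone was lost in 7 of 8 fits that left out an embryo, with adjusted p up to 0.134, and held only without G3 mutant 31 (-0.47, adjusted p = 0.0195). Cdkn1b and Ccne1 were the only members with separate embryos in both lines in the same direction (3.39% of 59, against 3.37% of all genes, of which 2.12% were higher and 1.25% lower). In G3, 8 of the 59 members had separate embryos (13.6%), 4 higher and 4 lower, against 11.5% of all genes (5.91% higher and 5.61% lower). In G17, 8 did (13.6%), 6 higher and 2 lower, against 9.93% of all genes (5.39% higher and 4.54% lower).

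Ccnd1, the cyclin D1 gene, was called lower in the G3 libraries labelled mutant, close to the threshold. Its G3 controls had 6371, 5193, 6107 and 5265 normalized reads and the libraries labelled mutant 4683, 4302, 4950 and 4606, which do not overlap. The log2 difference was -0.30 ± 0.08 (limma adjusted p = 0.0476), and it held in 1 of 8 fits that left out an embryo, that without G3 control 18 (-0.35, adjusted p = 0.0216). In G17 the controls ran from 3814 to 7124 and the mutants from 4527 to 5419, with a difference of -0.10 ± 0.15 (limma adjusted p = 0.814). The test of the difference between the lines gave 0.21 ± 0.18 (limma adjusted p = 0.869). An exon of LTO1 on the opposite strand covers 23.36% of the exon length of Ccnd1, and the sources do not state whether the library kit marks strand, so reads of the 2 genes cannot be told apart.

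Cdk6, a partner of the D cyclins, rose over both lines by 0.26 ± 0.06 (limma adjusted p = 0.0108). In G3 the controls had 2538, 2564, 2577 and 2805 normalized reads and the libraries labelled mutant 2987, 3054, 3363 and 3292, which do not overlap (0.28 ± 0.07, limma adjusted p = 0.0532). In G17 they overlapped, at 2248, 3012, 2885 and 2703 against 3011, 3524, 2881 and 3325. Ccnd3, the cyclin D3 gene, had a difference of -0.33 ± 0.10 in G17 (limma adjusted p = 0.101) and -0.01 ± 0.07 in G3. E2f1, an activating E2F factor, was higher in every G17 mutant (1940, 2280, 2381 and 2651) than in every G17 control (1873, 1657, 1593 and 1517), by 0.47 ± 0.12 (limma adjusted p = 0.0456). That call held without G17 control 20 (0.53, adjusted p = 0.0323) and without G17 mutant 33 (0.56, adjusted p = 0.0253) and was lost in the other 6 such fits, with adjusted p up to 0.139. In G3 the E2f1 difference was 0.06 ± 0.12, and the test between the lines gave 0.41 ± 0.17 (limma adjusted p = 0.748).

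**Figure D3:**
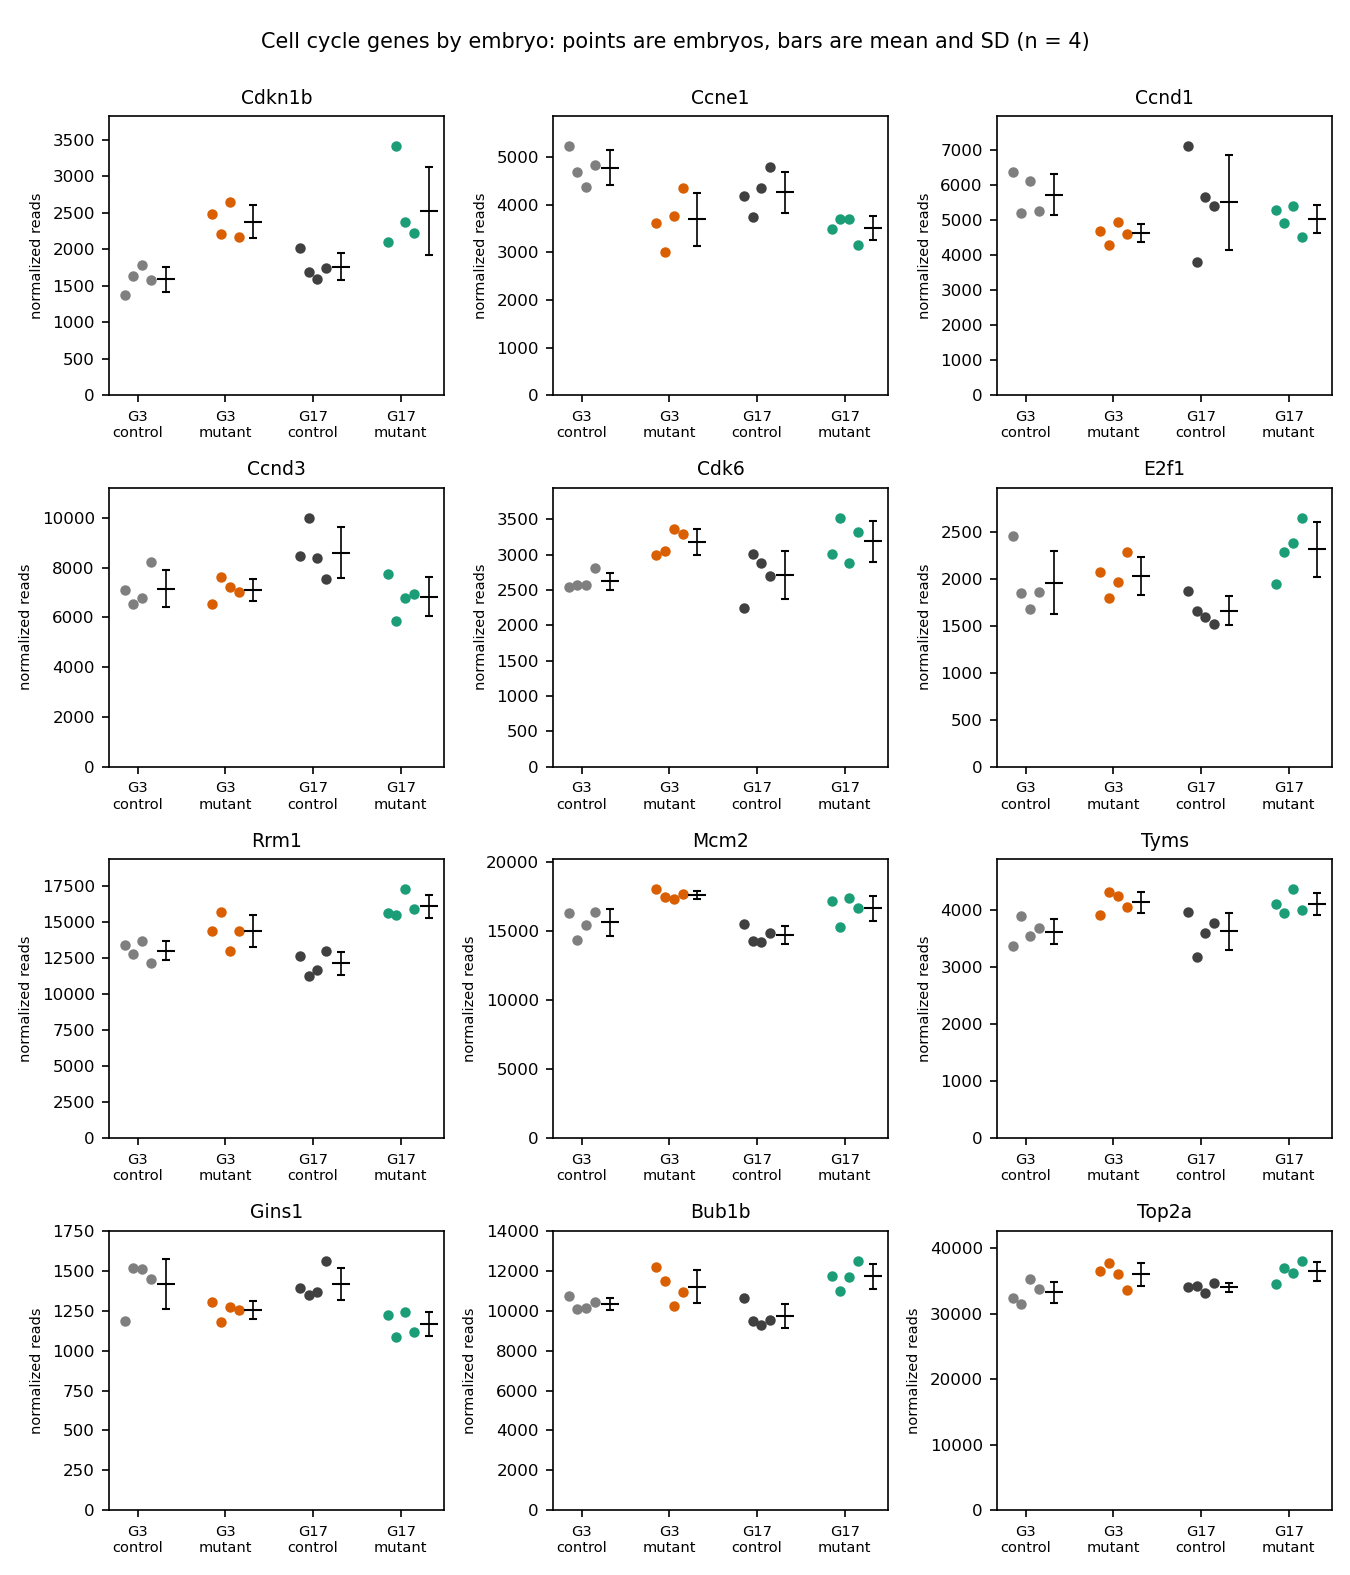
Normalized reads of 12 genes in each embryo of the 4 groups, with mean and SD beside the points (n = 4). In the panels of Cdkn1b and Ccne1 the mutant and control points of each line do not overlap; in that of Rrm1 they are separate in G17 only.

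In the replication group, Rrm1, the large subunit of ribonucleotide reductase, was the member with the firmest difference in G17. The G17 mutants had 15648, 15502, 17292 and 15944 normalized reads and the controls 12668, 11254, 11715 and 12977, so the groups are separate by a wide gap. The difference was 0.41 ± 0.07 (limma adjusted p = 0.00568), and it was called in all 8 fits that left out an embryo. In G3 the groups overlapped, at 13413, 12773, 13665 and 12193 in controls and 14369, 15727, 12998 and 14363 in the libraries labelled mutant (0.14 ± 0.06, limma adjusted p = 0.238). Over both lines Rrm1 rose by 0.27 ± 0.05 (limma adjusted p = 0.0018), and the test of the difference between the lines gave 0.27 ± 0.09 (limma adjusted p = 0.703). With the yolk sac term the G17 value was 0.34 (limma adjusted p = 0.132), and the joint call was lost (limma adjusted p = 0.0898).

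Mcm2, a subunit of the MCM helicase, had nearly the same difference in each line, 0.18 ± 0.05 in G3 and 0.18 ± 0.06 in G17, and was called over both (0.18 ± 0.04, limma adjusted p = 0.00363). Its G3 controls had 16296, 14332, 15444 and 16371 normalized reads and the libraries labelled mutant 18016, 17476, 17328 and 17639. In G17 they were 15526, 14252, 14184 and 14864 against 17156, 15300, 17367 and 16687, with 1 mutant below the highest control. The other 5 MCM2-7 genes were not called in any comparison, and their differences were between -0.06 and 0.10 in both lines. Tyms, the thymidylate synthase gene, rose over both lines by 0.19 ± 0.05 (limma adjusted p = 0.0207). It had 3367 to 3896 normalized reads in G3 controls and 3910 to 4328 in the G3 libraries labelled mutant. In G17 the groups overlapped, at 3189 to 3963 in controls and 3947 to 4370 in mutants. The joint call held in all 16 fits that left out an embryo (limma adjusted p up to 0.0456). It was lost in 1 of 10 other settings, the fit with the yolk sac term (limma adjusted p = 0.204). Tk1, thymidine kinase, had 2051, 2351, 2286 and 2200 normalized reads in G3 controls and 2024, 1833, 1849 and 1766 in the libraries labelled mutant. The Tk1 differences were -0.25 ± 0.08 in G3 and 0.21 ± 0.15 in G17, and neither was called (limma adjusted p = 0.121 and 0.543).

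Gins1, a subunit of the GINS complex of the replication helicase, was lower over both lines, with a log2 difference of -0.22 ± 0.07 (limma adjusted p = 0.0448). The G17 mutants had 1223, 1090, 1242 and 1121 normalized reads and the controls 1394, 1350, 1368 and 1566, which do not overlap. In G3 the controls had 1188, 1518, 1514 and 1452 and the libraries labelled mutant 1310, 1178, 1275 and 1259, which do. The call was lost in 14 of 16 fits that left out an embryo, with adjusted p up to 0.0911, and held without G3 control 16 (-0.27, adjusted p = 0.0125) and without G17 control 29 (-0.23, adjusted p = 0.0474). The remaining replication genes, among them Pcna, the polymerase genes Pola1, Pold1 and Pole and the origin factors Orc1, Orc6, Cdc6 and Cdt1, were not called.

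In the mitosis group, Bub1b, the gene of the spindle checkpoint kinase BubR1, was called in G17 and over both lines. The G17 mutants had 11780, 10996, 11715 and 12524 normalized reads and the controls 10638, 9518, 9285 and 9529, which do not overlap. The difference was 0.27 ± 0.07 in G17 (limma adjusted p = 0.0466), 0.11 ± 0.06 in G3 and 0.19 ± 0.05 over both lines (limma adjusted p = 0.0088). The G17 call was lost in 7 of 8 fits that left out an embryo and held without G17 control 20 (0.31, adjusted p = 0.0217). The joint call held in all 16 such fits, with adjusted p up to 0.0217. Of 10 other settings, the fit with the yolk sac term ended the joint call (limma adjusted p = 0.191). The test between the lines gave 0.16 ± 0.09 (limma adjusted p = 0.792).

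Top2a, topoisomerase II alpha, which untangles sister chromatids, rose over both lines by 0.11 ± 0.03 (limma adjusted p = 0.0389). Its embryos had 31499 to 35291 normalized reads in G3 controls, 33561 to 37802 in the G3 libraries labelled mutant, 33116 to 34663 in G17 controls and 34597 to 38075 in G17 mutants, so the groups overlap in both lines. The call was lost in 10 of 16 fits that left out an embryo, with adjusted p up to 0.0841. Kif20a, a kinesin of cytokinesis, had 9791, 9976, 10583 and 10104 normalized reads in G17 mutants and 9059, 8384, 9163 and 8959 in controls, which do not overlap, with a difference of 0.19 ± 0.06 that was not called (limma adjusted p = 0.131). Exons of Cdc23 on the opposite strand cover 29.3% of its exon length. The centromere genes Cenpe and Cenpf and the spindle gene Nusap1 were not called; Cenpf had 0.14 ± 0.05 over both lines (limma adjusted p = 0.0739). The proliferation marker Mki67 and the mitotic kinases Aurka, Aurkb, Plk1 and Bub1 were not called in any comparison.

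Of 117 further cell cycle genes in 5 lists, 116 were tested in G3 and 115 in the other comparisons. In G3, 2 were higher and 1 lower (2.59%), in G17 1 was higher (0.87%) and over both lines 9 were higher and 3 lower (10.4%; 7.83% higher and 2.61% lower). Of all genes, 3.98%, 3.03% and 11.2% were called, and over both lines 5.87% were higher and 5.30% lower. The list of CDK inhibitors, pocket proteins and other E2F factors had 1 gene higher and 1 lower of 14 over both lines, and the list of MuvB, B-MYB and FOXM1 none of 7. Other replication genes had 1 lower of 39 (2.56%), other mitosis genes 5 higher of 42 (11.9%), and other cyclins and CDKs 3 higher (23.1%) and 1 lower (7.69%) of 13, beside the same 5.87% higher and 5.30% lower of all genes. E2f4, a mostly repressive E2F factor, was lower over both lines (-0.23 ± 0.04, limma adjusted p = 0.000776) and Tfdp2, a partner of E2F factors, was higher (0.35 ± 0.07, limma adjusted p = 0.00248). Dbf4, the activator of the Cdc7 kinase that fires origins, was lower (-0.22 ± 0.05). Ccng2, the cyclin G2 gene, which is linked to cell cycle arrest, was higher in all mutants of each line (0.58 ± 0.11, limma adjusted p = 0.00129). Its G3 controls had 923, 727, 1133 and 1256 normalized reads and the libraries labelled mutant 1705, 1639, 1454 and 1468. Its G17 controls had 1137, 1299, 1131 and 858 and the mutants 1511, 1392, 1524 and 1787. The mitotic list held Pttg1, securin (0.63 ± 0.15), Spc25 of the NDC80 complex (0.24 ± 0.06), Wee1, an inhibitory kinase of Cdk1 (0.20 ± 0.05), Ncapd2 of condensin (0.15 ± 0.04) and Esco2, a cohesin acetyltransferase (0.26 ± 0.08), all higher. Ccng1 (0.30 ± 0.08) and Cdk5 (0.33 ± 0.09) were higher and Cdk12 (-0.16 ± 0.05) was lower. Of the 16 fits that left out an embryo, the joint call was lost in 10 for Esco2, 8 for Cdk12 and 2 for Cdk5. Of 10 other settings, 2 ended the call of Cdk12. The calls of Tfdp2, Wee1, Spc25, Ncapd2, Esco2, Ccng1 and Cdk5 were each ended by 1. Those of E2f4, Dbf4, Ccng2 and Pttg1 held in every alternative.

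No member passed the test of a difference in response between the lines: 0 of 59 were called (limma), against 0.0117% of all genes (0.00585% in each direction). At an unadjusted p under 0.05 there were 8 with a larger value in G17 and 1 with a smaller one, where 6.45% of all genes passed, and DESeq2 and edgeR called 0 members. The medians of the difference between the lines were 0.08 for cyclins and CDKs, 0.08 for replication and 0.05 for mitosis, beside -0.01 for all genes. Of the 59, 46 lay above 0 (78%), against 47.8% of all genes. When 1 embryo was left out, these medians ran from 0.04 to 0.10, from 0.05 to 0.13 and from 0.02 to 0.07, with 40 to 50 of the 59 genes above 0; without G17 control 29 the median of all members was 0.04 and without G17 control 20 it was 0.10. The mitosis median was 0.02 without G3 control 20, where that of cyclins and CDKs was 0.04, 0.03 without G3 mutant 30 and 0.07 without G3 mutant 23 or G17 control 20. These values share the control embryos with a direct comparison of the controls. Set on joint size factors, G17 controls minus G3 controls had a median of -0.10 over the replication genes, where 22 of 24 lay below 0, of -0.04 over mitosis and of -0.01 over cyclins and CDKs, beside 0.00 for all genes (-0.00189). No member passed that test (limma; 0 of 59, against 0.00% of all genes), 2 were higher and 4 lower at an unadjusted p under 0.05, where 7.02% of all genes passed, and DESeq2 called 1 lower. Of the 59, 17 lay above 0 (28.8%), against 49.7% of all genes. Without G17 control 29 the replication median was -0.05, with 8 of 24 genes above 0, and 24 of 59 members lay above 0. The control embryos of the lines were separate for 4 members, against 4.06% of all genes (1.85% higher and 2.21% lower in G17): Aurkb was higher in G17 and Ccne2, Rrm2 and Kif20a were lower.

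The groups were also summed by embryo. All 59 genes took 11925 to 12550 RPM in G3 controls, 12233 to 12840 in the G3 libraries labelled mutant, 10962 to 12420 in G17 controls and 12412 to 13009 in G17 mutants. The lowest of the 16 was G17 control 29, which had the lowest value of its group for 32 of the 59 genes. The same embryo had the highest sum of yolk sac markers (3918 RPM) and the lowest sum of myocardium markers (3110). Without it, 1 member was called higher in G17 in place of 3, Rrm1. That loss was not particular to this embryo. Over the 8 fits that left out an embryo, the G17 call of E2f1 was lost in 6 and that of Bub1b in 7. Yolk sac markers were called lower for 5 of 6 genes in G17 and over both lines and for 0 of 6 in G3. Their part in the differences of the cell cycle genes was not tested beyond the fit with their score as a term, in which 0 members were called in either line and over both lines 2 were higher (Cdk6 and Mcm2) and 2 lower (Ccne1 and Gins2). Exons of Gse1 on the opposite strand cover 67.32% of the exon length of Gins2, so reads of these genes cannot be told apart. Other marker lists also moved with the groups. Foregut endoderm markers summed to 223 to 293 RPM in G3 controls and 344 to 359 in the G3 libraries labelled mutant, which do not overlap, with 6 of 6 genes above 0 and 2 called higher; in G17 they were 258 to 372 against 280 to 384. Primitive erythrocyte markers were low, at 0 to 11.5 RPM in G3 controls, where up to 6 of 6 genes were at 0, and 7.73 to 23.9 in the libraries labelled mutant. Of 5 of these genes tested in G3, all were above 0, 3 at an unadjusted p under 0.05 and 0 called (limma). In G17 they were 10.7 to 68.3 RPM against 2.38 to 110.6. Somite markers had 174 to 209 RPM in G3 controls and 118 to 174 in the libraries labelled mutant, and 119 to 236 against 105 to 153 in G17, with 4 of 4 genes below 0 in each line. Myocardium markers had 4136 to 6157 RPM in G3 controls and 4475 to 5645 in the libraries labelled mutant. In G17 they had 3110 to 5700 against 4229 to 6144. In each line 9 of 10 of these genes were above 0, with a median log2 difference of 0.15 in G3 and 0.29 in G17. Surface ectoderm markers had 613 to 1327 RPM in G17 controls and 478 to 729 in mutants, with 3 of 5 genes below 0 and a median of -0.61. The part of these lists in the differences of the cell cycle genes was not tested.

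**Figure D4:**
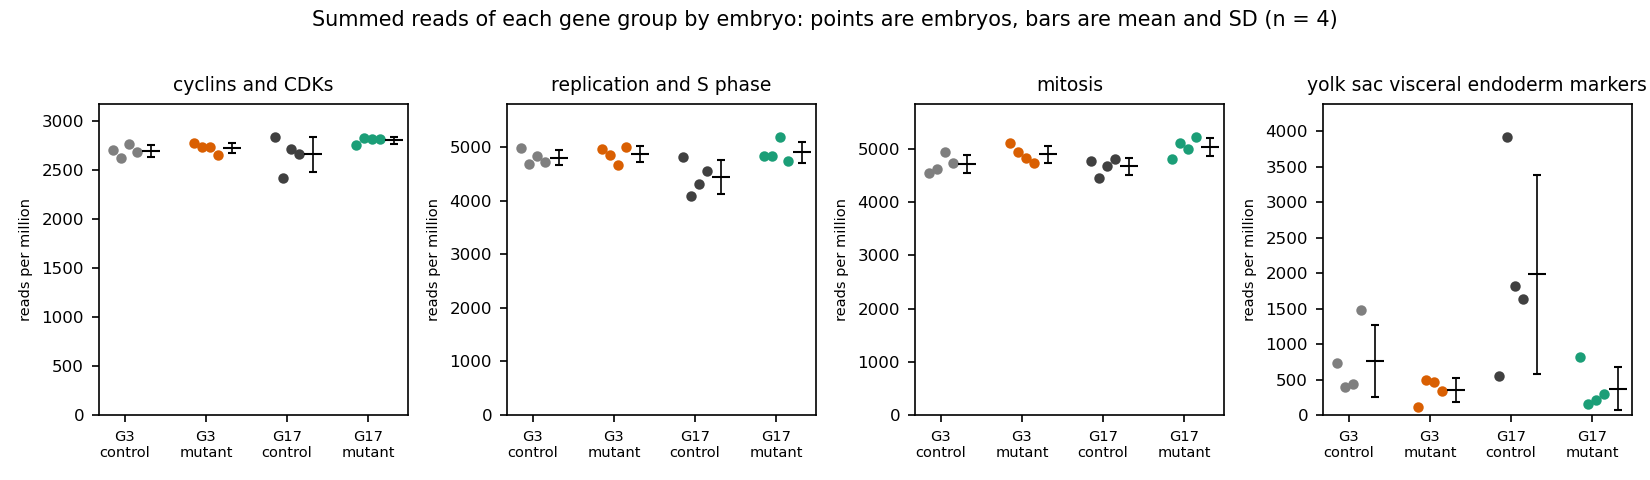
Summed RPM of each functional group and of 6 yolk sac visceral endoderm markers, by embryo, with mean and SD (n = 4). G17 control 29 is the lowest point in each of the 3 cell cycle panels (2418, 4093 and 4451) and the highest in the yolk sac panel (3918).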

How the data were processed

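Total RNA of the cardiac region of 16 single embryos was sequenced. Reads were aligned with HISAT2 to GRCm38, counted with featureCounts of Subread and normalized with DESeq2, per the submitters' processing notes, which name no versions in what was used here. The authors deposited 1 table per line with a normalized signal per gene and embryo (reads divided by a size factor within the line), and DESeq2 p-values. From the deposited signal, 99.967% to 100% of values in an embryo came back as whole reads (tolerance 0.01), which gave read totals of 32391421 to 49353025. Where an embryo had no read, the limit is 3 reads, which is 2.53 to 3.84 on the normalized scale, for counting error only.

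The main test was limma 3.58.1 (R 4.3.3) with a mean-variance trend on log2(signal + 1), for genes with at least 10 in at least 4 embryos, with Benjamini-Hochberg adjustment over all genes tested and a threshold of 0.05. Each line was fitted alone because the tables were normalized separately; both lines were fitted together with line as a term for the common effect and the interaction, and control embryos of the lines were compared on recovered reads with joint DESeq2 size factors. edgeR 4.0.16, run on the recovered reads as an alternative with TMM factors, called 607 genes in G3, 476 in G17 and 1751 over both lines; DESeq2 1.42.0 called 1281, 1072 and 2236. Levels between genes were divided by the merged length of all annotated exons of a gene in GENCODE M21. This length covers every annotated transcript, so the order of levels depends on the annotation as well as on the reads. Exons of 22 of the 59 genes overlap another gene, and no source used here states the strand of the kit. The overlap is given above for Ccnd1, Kif20a and Gins2 only. Among the others are Cdk4 (19.73% of exon length, Tspan31), Ccne2 (17.42%, Ints8) and Ccnd3 (4.11%, Bysl), each on the opposite strand. The code was tested on simulated data.

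Members and gene lists were chosen with earlier results of these data known. Genes were named when they were called in a comparison or had one of the 3 smallest p in their functional group. Most of these are given with the values or the range of their embryos, but Ccnd3, Cenpe, Cenpf and Nusap1 are not. From the 5 lists of other cell cycle genes, all called genes were named. The 9 marker lists of cell types were summed by embryo. Sums are given above for myocardium, yolk sac, foregut, primitive erythrocytes and somite, and for surface ectoderm in G17 only. Of the 10 myocardium genes 1 was called higher in G3 and 0 in G17. Of the others, primitive erythrocyte, endothelium and surface ectoderm lists had no gene called in either line; foregut endoderm had 2 genes higher in G3 and 1 in G17, neural tube 1 higher in each, neural crest 2 lower in G3 and 0 in G17, and somite 1 lower in each.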

Additional observations from a re-analysis of the deposited data

Results flagged for a closer look

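In the 17 named genes, 68 sets of 4 embryos were examined for a single embryo far from the others (Dixon's test at its 95% critical value), of which chance flags about 1 in 20. Cdk6 was 2805 normalized reads in G3 control 21, where the other 3 controls had 2538 to 2577. Cenpf was 15705 normalized reads in G17 control 29, where the other 3 controls had 16916 to 17141; this is the embryo with the highest sum of yolk sac markers. No difference between the lines passed the interaction test for a named member.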

How the results depend on the processing

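Of 2151 recomputed values, 1912 stayed within the limits set: for a single gene the same direction and side of the threshold, for a count within 1.5 times of the main count, and for a median of members a shift of at most 1 SD between embryos of a group (for all genes, 0.1). Beyond these, 136 calls were lost, 13 were gained, 63 counts or medians moved and 27 single-gene values changed sign; 16 of 432 recomputed medians of the member groups also changed sign. The limit for medians is wide, so the 427 of 432 that stayed within it are not thereby shown to be stable. For cyclins and CDKs, the SD of the mean log2 value per embryo was 0.218 in G17 controls, beside a G17 median difference of 0.05. Of the members, Ccne1, Cdk6 and Mcm2 over both lines passed the test in every alternative. All 27 sign changes of single genes were in values that were not called: Greb1l over both lines (-0.19) was 0.0659 with limma-voom, and 4 interaction values near 0 crossed it. The interaction of Mcm2 (0.00) was -0.000409 with edgeR and TMM, -0.00690 with limma-voom and -0.0123 with TMM scaling, and ran from -0.0234 to 0.0406 when 1 embryo was left out; that of Tyms (-0.01) was 0.00263 with limma-voom and ran from -0.0700 to 0.0344; that of Top2a (-0.02) ran from -0.0502 to 0.00858 and that of Cdk6 (-0.04) from -0.127 to 0.0140.

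The counts of called members depended on the test. In G3 the main counts were 1 higher and 2 lower: edgeR with TMM or with RLE factors and TMM scaling gave 2 and 0, limma-voom 3 and 0, DESeq2 gave 3 higher, as did the authors' deposited table, a minimum of 100 reads 2 higher, and no filter or a pseudocount of 0.1 gave 0 lower. The fit of all 16 embryos gave 1 lower, and leaving out 1 embryo gave 0 to 1 lower and, for the replication median, -0.0498 to 0.0187. In G17 the main counts were 3 higher and 0 lower: edgeR with RLE factors, no filter and a pseudocount of 0.1 gave 1 higher, DESeq2 6 higher and 1 lower, the fit of all 16 embryos 5 higher and 1 lower, and leaving out 1 embryo 1 to 3 higher. Over both lines 2 were lower: edgeR with TMM, limma-voom, no filter and TMM scaling gave 1, and leaving out 1 embryo gave 1 to 3. DESeq2 called 1 member lower between the controls. The yolk sac marker score as a term, chosen after seeing the data, gave 0 higher and 0 lower in G3, 0 higher in G17 with a mitosis median of -0.0317, and 2 higher over both lines with medians of -0.0220 for all members, -0.0256 for replication and -0.00351 for mitosis. The cause was not tested.

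No paired analysis was possible because control and mutant embryos of a line share no number in the labels. With 4 embryos per group and a median standard error per member of 0.07 in G3 and 0.08 in G17, a difference of that size cannot be told from 0 for 1 gene.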
